A study of Drosophila melanogaster with 2 samples.

Results

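The genes described here encode the subunits of Polycomb repressive complex 2 (PRC2) in Drosophila melanogaster, and the question was whether and where the acetyltransferase Chameau was bound at them in embryos. The list was given by name and not by any measured value, although it was chosen with earlier results of these data known. It holds 8 genes of the 13968 protein-coding genes annotated on 7 chromosome arms. E(z), Su(z)12, esc, escl and Caf1-55 encode the core of the complex, and Pcl, Jarid2 and jing encode accessory subunits.

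PRC2 is the enzyme that methylates lysine 27 of histone H3, the mark of genes kept silent by the Polycomb group, such as the Hox genes in the fly embryo. E(z) carries the catalytic SET domain and is active only in a complex with Su(z)12 and with Esc or its paralogue Escl. The same lysine can carry an acetyl group instead, which excludes the methyl mark. Chameau (chm) belongs to the MYST histone acetyltransferases, and chm mutations are known from fly genetics to weaken silencing by Polycomb.

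The chromatin came from flies of the strain labelled chm-GFP, which carry a transgene for a chm-eGFP fusion protein, and was precipitated with an antibody against GFP. Whole embryos aged 0 to 24 h were used, so a peak cannot be given to a tissue or stage. The 2 samples are biological replicates of 1 group, with no second group to compare them with. The labels do not say which promoter drives the fusion, whether it replaces the endogenous protein, or how separately the replicates were raised, and a control experiment that they name was not used here.

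The deposited data are lists of peaks on the dm6 assembly. The main list, which the submitters call conservative, held 4195 peaks on the 7 arms with an irreproducible discovery rate (IDR) of at most 0.01. The IDR is low for peaks that rank consistently near the top in separate sets of peaks. The pooled list held 6157 peaks, the list of replicate 1 held 3536 and that of replicate 2 held 4104. Each peak has a summit, its highest point, and a signal, the peak caller's own value, whose scale is not stated. Ranks and percentiles of signal are therefore read within a list, and the sequencing depth behind the signals is unknown. Means and ratios of the 2 replicates set values from separate lists side by side. Whether depth or scale enters them was not tested.

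Of the 8 PRC2 genes, 6 had a main-list summit inside the gene or within 2 kb of it (75%), beside 29.0% of all protein-coding genes (95% Wilson interval 28.2 to 29.8%, counting error only). These were E(z), Su(z)12, Caf1-55, Pcl, Jarid2 and jing, with 14 peaks in all. The paralogues esc and escl had none. At their own annotated starts, within 500 bp, 4 genes had a summit (50%), beside 16.8% of all genes (16.2 to 17.5%): E(z), Su(z)12, Jarid2 and jing. The peaks assigned to Caf1-55 and Pcl lay at the starts or in the introns of neighbouring genes. When each peak was given only to its nearest protein-coding gene, 3 of the 8 genes kept a peak, beside 16.2% of all genes under the same rule. E(z) and Su(z)12 kept 1 peak each, jing kept 6 and the other 5 genes kept none.

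**Figure D1:**
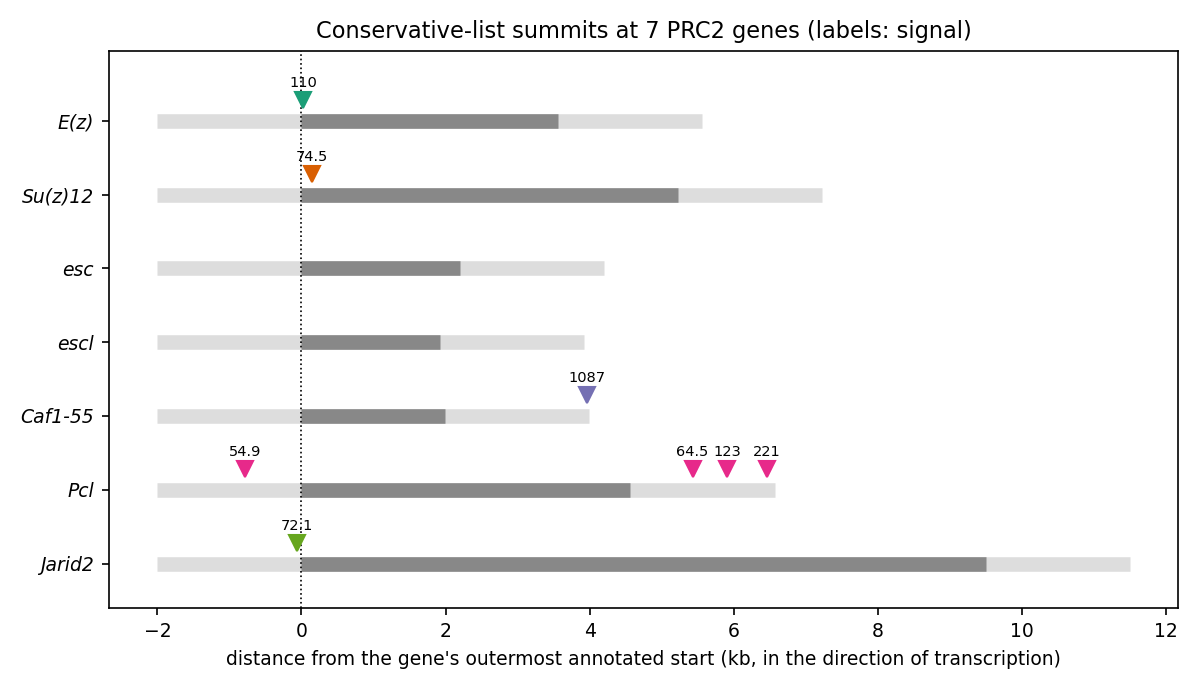
Positions of main-list summits (triangles, labelled with their signal) at 7 PRC2 genes, in kb from the outermost annotated start in the direction of transcription; dark bars are genes and pale bars the 2 kb on either side. The summits of E(z), Su(z)12 and Jarid2 sit at the start, whereas those near Caf1-55 and Pcl lie outside the gene, and esc and escl have none.

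Of the 4 start peaks, 3 also lay within 500 bp of the start of another gene. Over all 2350 protein-coding genes with a start peak, 44.9% shared the strongest one in this way. The sequences of 3 promoters are shown because divergent starts lie close to the summit, so that the same stretch of DNA serves a PRC2 gene and a neighbour, or neighbours only. The summit lies between the starts at Jarid2 and Uch-L5 and at Art3 and mRpS10, and 20 bp inside E(z) at the other pair. Each is read on the plus strand of the RefSeq release 6 genome (the dm6 assembly) and runs from 20 bases inside the gene on the left to 20 bases inside the gene on the right. Capitals mark the motif matches named after each, on either strand.

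E(z) and Cnep1r2, chr3L:10638110-10638166: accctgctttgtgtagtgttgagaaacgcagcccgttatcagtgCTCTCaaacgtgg

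Jarid2 and Uch-L5, chr3L:9476945-9477058: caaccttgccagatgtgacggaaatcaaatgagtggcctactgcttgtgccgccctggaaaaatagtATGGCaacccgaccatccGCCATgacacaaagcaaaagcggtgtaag

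Art3 and mRpS10, near Caf1-55, chr3R:15229388-15229685: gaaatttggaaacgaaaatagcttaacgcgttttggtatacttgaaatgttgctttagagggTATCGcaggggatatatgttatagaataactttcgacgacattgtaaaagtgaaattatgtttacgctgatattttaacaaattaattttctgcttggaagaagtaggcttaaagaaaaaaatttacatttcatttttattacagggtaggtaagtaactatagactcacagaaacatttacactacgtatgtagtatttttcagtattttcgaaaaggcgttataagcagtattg

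In the first of these sequences, 57 bases long, the starts of E(z) and Cnep1r2 are 16 bp apart, and CTCTC is the reverse complement of GAGAG, the motif of GAGA factor. A GAGAG match was present in 10.3% of windows of the same length centred on all main-list summits. The printed sequences were instead set by the gene starts, with the summit at base 1 here and at base 27 in the second. In the second, 114 bases long, the starts of Jarid2 and Uch-L5 are 73 bp apart and both runs of capitals are matches to GCCAT, the core motif of the Polycomb recruiter Pho, seen in 17.7% of windows of that length. In the third, of 298 bases, TATCG is the reverse complement of CGATA, the core motif of the insulator protein BEAF-32, seen in 37.4% of windows of that length. A match describes the letters only and does not show that the factor binds.

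E(z), the catalytic subunit (FBgn0000629, 3L:10634575-10638130, minus strand), had a main-list peak at 3L:10637942-10638277 with its summit 20 bp downstream of the start, in the 5' UTR. The signal was 110, higher than 62.2% of main-list peaks. Replicate 1 gave 50.3 and replicate 2 gave 70.9, a mean of 60.6 ± 14.6 (SD, n = 2). It was the only core-subunit gene with a start peak past the threshold in every list: the main list (IDR 0.000673), the pooled list and both replicates' own lists. The main-list summit also lay 36 bp from the start of Cnep1r2, which is transcribed the other way, so the peak cannot be given to E(z) alone. In the replicates' own lists the summit was at -12 bp from the E(z) start (upstream) in replicate 1 and at 38 bp (downstream) in replicate 2. The side of the start on which it falls is therefore not fixed.

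Su(z)12, the core subunit needed for the methyltransferase activity (FBgn0020887, 3L:19918242-19923462, minus strand), had a summit 140 bp inside its start, in the 5' UTR (peak 3L:19923154-19923489). The signal of 74.5 exceeded that of only 27.7% of main-list peaks, and the replicates gave 31.5 and 46.5 (39.0 ± 10.6, SD, n = 2). The main-list IDR was 0.00532, but the peak was in none of the other lists past the threshold. In the ranked lists its IDR was 0.517 for the pooled list, 0.0883 for replicate 1 and 0.604 for replicate 2. The start of Pfdn6, a prefoldin subunit gene, lay 349 bp from the summit. A further ranked peak at -1561 bp from the Su(z)12 start (upstream), inside Grasp65, had a signal of 76.7 and an IDR of 0.0114, just outside the threshold. It was past the threshold in the list of replicate 2.

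The paralogues esc and escl encode the WD40 subunit that binds the histone tail, and neither had a peak in any list past the threshold. The strongest ranked summit in the window of esc (FBgn0000588, 2L:11827204-11829405, minus strand, inside Pde1c) had a signal of 21.5 and an IDR of 0.744, and only 3.98% of the 11270 genes with a ranked peak had a weaker one. For escl (FBgn0032391, 2L:11990927-11992848, plus strand) the strongest had a signal of 48.2, an IDR of 0.0907 with 18.9955 in replicate 1 and 24.8562 in replicate 2, and lay 564 bp inside the gene. For escl, 45.3% of genes were weaker, close to the middle of the genome-wide order. The nearest main-list summits were 12823 bp from the start of esc and 20023 bp from that of escl. In the replicates' own ranked lists the strongest values in the window of esc were 20.7 in replicate 1 and 10.2 in replicate 2, so esc was the higher of the pair in replicate 1 and escl in replicate 2.

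Caf1-55, a histone-binding protein that PRC2 shares with chromatin assembly and remodelling complexes (FBgn0263979, 3R:15225576-15227564, plus strand), had the strongest of the 14 peaks near it and none past the threshold at its own start. The peak at 3R:15229408-15229651 had a signal of 1087, rank 6 of 4195, and an IDR of 1e-05, the lowest that the ranked list gives. Replicate 1 gave 525 and replicate 2 gave 559 (542 ± 24.0, SD, n = 2). Its summit lay 1971 bp beyond the 3' end of Caf1-55, only just within the 2 kb window, between the divergent starts of Art3, an arginine methyltransferase gene, and mRpS10, a mitochondrial ribosomal protein gene. It was 127 bp from the former start and 130 bp from the latter, at base 148 of the sequence printed above. At the start of Caf1-55 the strongest ranked summit had a signal of 45.2 and an IDR of 0.131, with 29.3 in replicate 1 and 14.6 in replicate 2. The next main-list summit outside the window was 6499 bp from the gene.

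Among the accessory subunits, Pcl encodes Polycomblike, which tethers a form of PRC2 to chromatin (FBgn0003044, 2R:18135426-18139990, plus strand). It had 4 main-list summits within 2 kb, and all lay outside the gene. The weakest, with a signal of 54.9, was 783 bp upstream of Pcl and 9 bp from the start of Hsf, the heat shock factor gene. The other 3 lay downstream, in pAbp, the gene for poly(A)-binding protein, which begins 88 bp after Pcl ends. Of these, 2 were 77 and 42 bp from pAbp starts, with signals of 64.5 and 123. The strongest, at 2R:18141825-18141926 in a pAbp intron, had a signal of 221, above 90.7% of main-list peaks, and gave 116 and 97.2 in the replicates (107 ± 13.4, SD, n = 2). It lay 1894 bp beyond Pcl. At its own start Pcl had a ranked signal of 7.80 (IDR 0.744), and only 2.32% of the 9205 genes with a ranked peak at a start had a lower value.

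Jarid2 encodes the accessory subunit related to the JmjC demethylases (FBgn0036004, 3L:9477038-9486530, plus strand). Its single main-list peak at 3L:9476803-9477138 had a summit 67 bp upstream of its start and 6 bp from the start of Uch-L5, a deubiquitinase gene. The signal was 72.1, above 24.3% of the main list, and the replicates gave 36.7 and 35.7 (36.2 ± 0.718, SD, n = 2), the closest pair of values among the 14 peaks. The IDR was 0.00473 in the main list, but 0.0472 and 0.031 in the replicates' own ranked lists, so neither replicate alone had it past the threshold.

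The gene jing, the fly counterpart of mammalian AEBP2, encodes a zinc finger protein that also acts in tracheal and glial development (FBgn0086655, 2R:6502006-6621792, plus strand). At 119.8 kb it is longer than 99.6% of protein-coding genes and has 3 annotated starts. It held 6 main-list peaks. The summit at the first start lay 53 bp upstream of it, at 2R:6501785-6502120, was within 500 bp of no other gene's start, and had a signal of 84.7 with 40.7 in replicate 1 and 49.8 in replicate 2. It was the only start peak among the PRC2 genes that no neighbouring start shares. The strongest peak, at 2R:6546316-6546651 in an intron 44.5 kb downstream, had a signal of 140 (139.502 as deposited). The other 4 peaks lay 93.3, 95.3, 111 and 113 kb downstream, with signals of 87.6, 75.3, 85.0 and 73.3, the last in a coding exon and the others in introns.

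At jing the replicates differed more than at the other PRC2 genes. The intronic peak 44.5 kb from the start gave 117 in replicate 1 and 28.3 in replicate 2, a mean of 72.7 ± 62.7 (SD, n = 2). Its ratio of 4.13 was above that of 99.5% of the 4133 main-list peaks with a value in both replicates, over which the median was 1.08 and the 5th to 95th percentile range 0.56 to 2.28. The peaks 93.3, 95.3 and 113 kb downstream had ratios of 2.00, 1.51 and 1.81, whereas those at 53 bp upstream and 111 kb downstream had 0.817 and 1.03. At the other 5 genes with peaks, the ratios ran from 0.673 to 1.20. The place of the peaks differed too. At jing only the peak at the first start was within 500 bp of a protein-coding start, whereas at the other genes only the pAbp intron peak was not. Over all main-list peaks the 5th to 95th percentile range was 0.546 to 1.87 within 500 bp of a start and 0.569 to 2.72 elsewhere. The ratios of 2.00, 1.51 and 1.81 were inside the latter range and 4.13 was above it. With 2 samples the differences at jing have no test, and whether they come from the embryos or from the experiment was not tested.

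**Figure D2:**
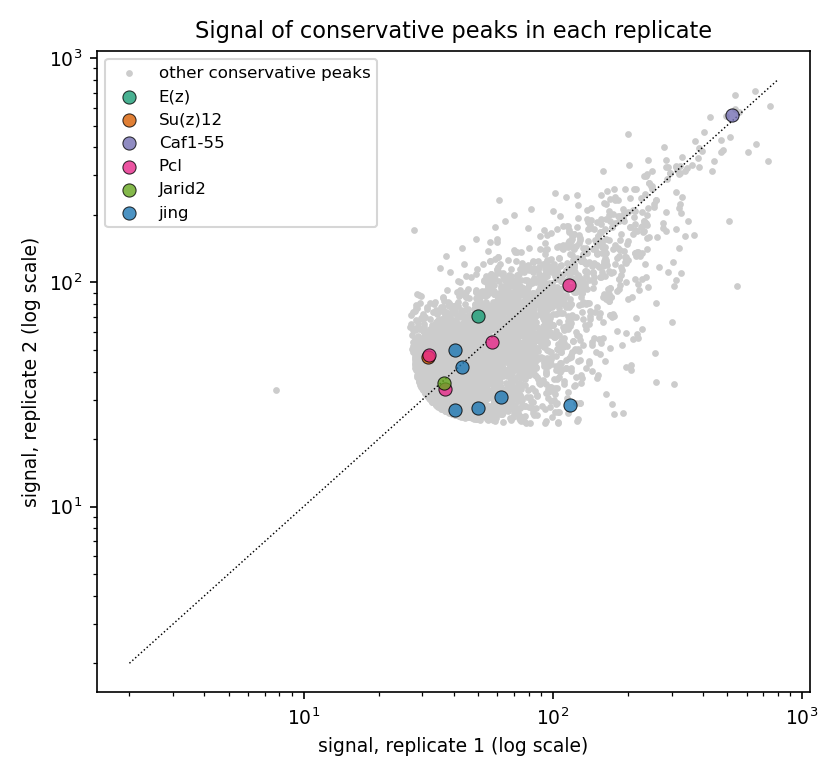
Signal of each main-list peak in replicate 1 (x axis) and replicate 2 (y axis), both on log scales, with the 14 peaks at PRC2 genes coloured by gene, other peaks in grey and equal signal on the dotted line. The Caf1-55 peak (525 and 559) is at the upper end, the jing peak with 117 and 28.3 lies far below the line, and the Su(z)12 point lies under a Pcl point with nearly the same values.

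The separate lists also differed at jing. The list of replicate 1 held 15 peaks in its window, that of replicate 2 held 3 and the pooled list held 18, of which 12 were not in the main list. Replicate 1 was higher at 15 of the 18 pooled peaks, with a median ratio of 2.06 and a range of 0.817 to 5.72. Over all 5791 pooled peaks with both values the median was 1.08 and 56.7% were higher in replicate 1. Of the pooled peaks at jing, 10 had a ratio over 2, against 13.8% of all pooled peaks. The 12 peaks outside the main list had not passed the threshold between the replicates, which selects for unequal replicate ranks. The set of all pooled peaks was not matched for the share of such peaks, so this comparison cannot separate that selection from a difference at jing. A pair of adjacent pooled peaks, 32.9 and 33.1 kb downstream, read the same replicate peaks and are not independent. At the internal start 109 kb downstream, the pooled peak gave 69.4 in replicate 1 and 20.7 in replicate 2, and its IDR between the replicates was 0.022.

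**Figure D3:**
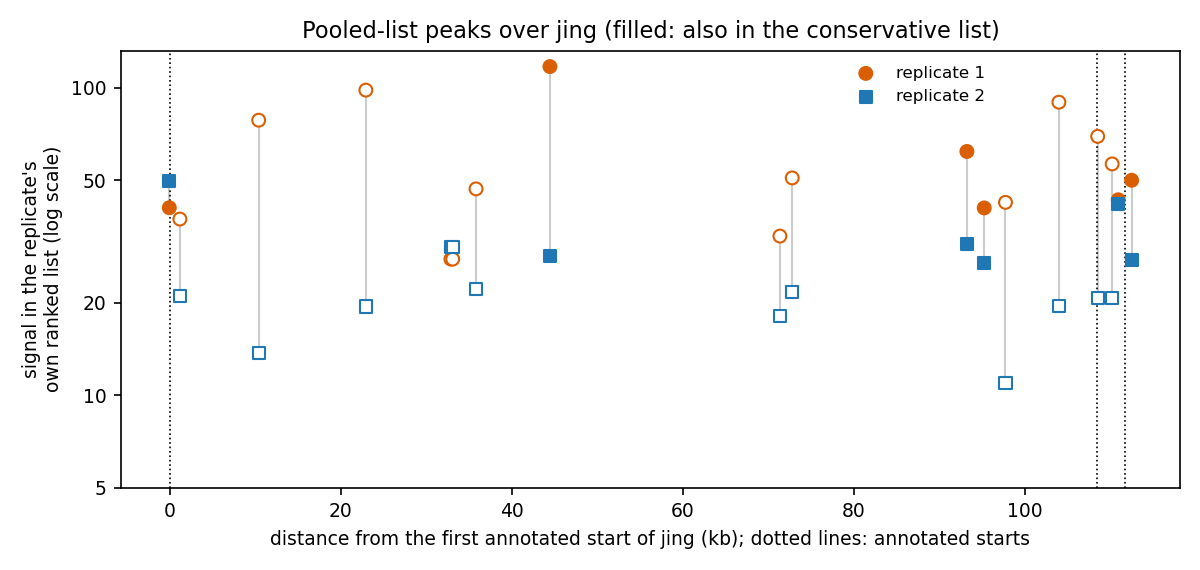
Signal of the 18 pooled-list peaks along jing in replicate 1 (circles) and replicate 2 (squares), on a log scale, against the distance in kb from the first annotated start; filled symbols are peaks that are also in the main list and dotted lines are annotated starts. The circle is above the square at 15 peaks, and the pairs at the first start and at 111 kb are close together.

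How many PRC2 genes had a peak depended on the list. In the pooled list 5 of 8 had a summit inside or within 2 kb, beside 35.7% of all genes, and 3 of 8 had one at a start, beside 21.2%, with Su(z)12 absent. In the list of replicate 1 the counts were 4, beside 24.4%, and 2, beside 13.5%. In the list of replicate 2 they were 5, beside 29.4%, and 2, beside 17.2%, where Su(z)12 was counted for the upstream peak in Grasp65. The share of all genes was thus 26.9% ± 3.57 inside or within 2 kb and 15.3% ± 2.63 at starts (SD, n = 2 replicates). In each list the share of PRC2 genes was above that of all genes. E(z) and jing were the only ones with a start peak in both replicates' own lists. For jing this was the internal start 109 kb downstream in both, and also the first start in replicate 2. These shares rest on 8 genes, and were not tested.

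**Figure D4:**
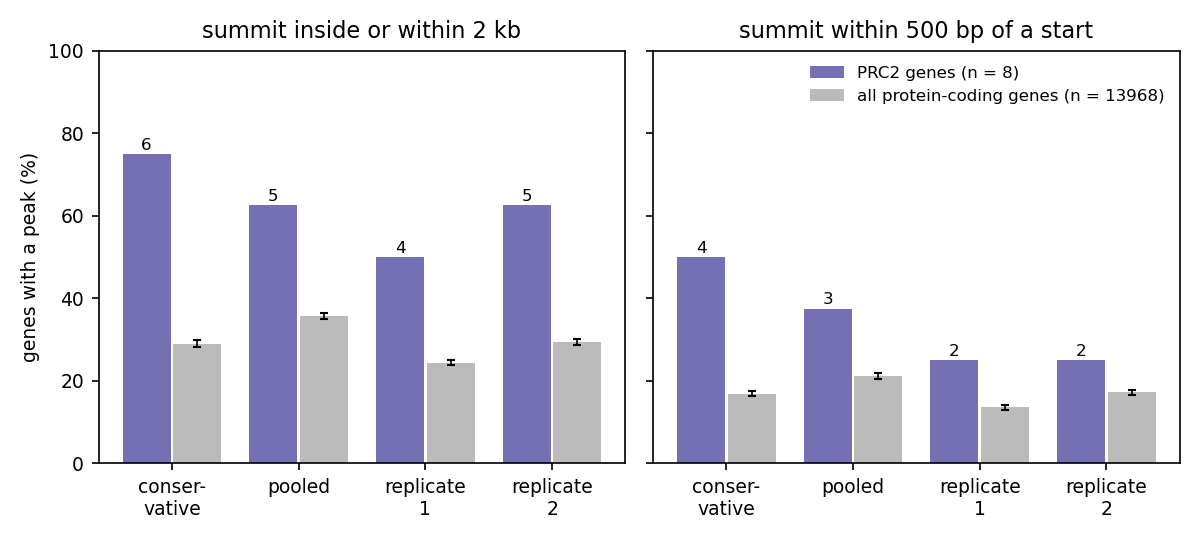
Share of the 8 PRC2 genes (purple, with the count above the bar) and of all 13968 protein-coding genes (grey, with 95% Wilson intervals) that have a summit inside or within 2 kb (left) or within 500 bp of a start (right), in each of 4 peak lists. The purple bar is above the grey one in every list, and falls from 6 genes in the main list to 4 in that of replicate 1.

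Ordered by the strongest ranked signal at their own start, regardless of the threshold, the genes ran from E(z) (110) through jing (84.7), Su(z)12 (74.5), Jarid2 (72.1) and Caf1-55 (45.2) to Pcl (7.80), while esc and escl had no ranked summit there in the list that pairs the replicates. Among the 9205 genes (65.9%) with a ranked start peak the median was 40.1. E(z) was above 87% of them, jing above 80.7%, Su(z)12 above 76.8%, Jarid2 above 75.6% and Caf1-55 above 56.2%. The means of the replicate signals were 60.6 ± 14.6 for E(z), 45.2 ± 6.44 for jing, 39.0 ± 10.6 for Su(z)12 and 36.2 ± 0.718 for Jarid2 (SD, n = 2). The replicate values of jing and Su(z)12 overlapped, as did those of Su(z)12 and Jarid2, while the lower E(z) value (50.3) was just above the higher jing value at its first start (49.8). In the ranked list of replicate 1, however, the strongest jing value was 69.4, at the internal start, above the 50.3 of E(z), so the order of this pair turned in that replicate. Caf1-55, at 21.9 ± 10.4, was below these 4 genes in both replicates.

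**Figure D5:**
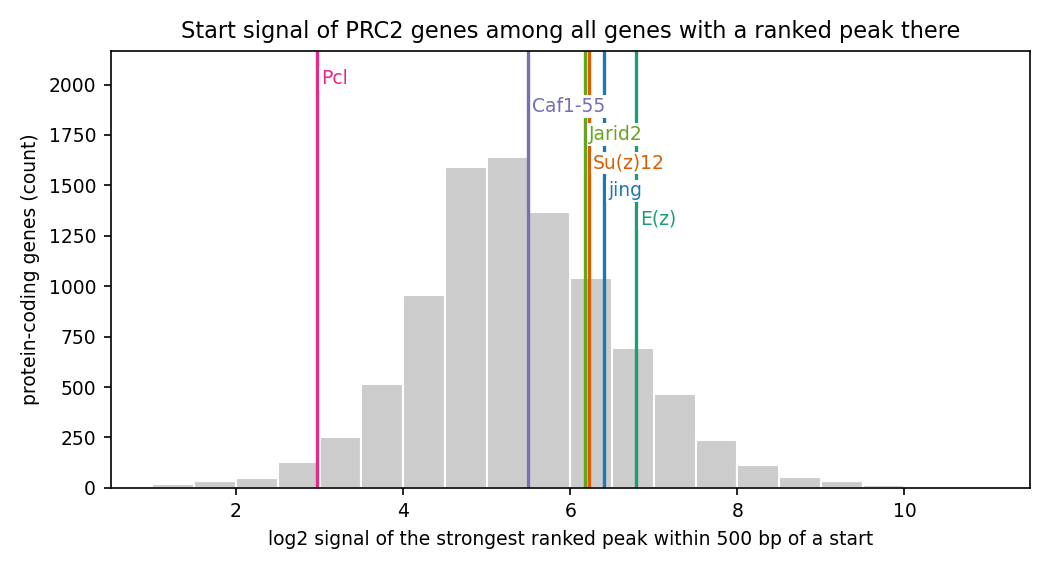
Number of protein-coding genes (y axis) by the log2 signal of the strongest ranked peak within 500 bp of a start (x axis, 9205 genes), with coloured lines for the 6 PRC2 genes that have such a peak. E(z), jing, Su(z)12 and Jarid2 lie to the right of the peak of the histogram, Caf1-55 near it and Pcl far to the left.

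Many genes of the complexes that work with or against PRC2 also had peaks. Of 26 genes in 4 related lists, 18 had a main-list summit inside or within 2 kb and 10 at a start, beside 29.0% and 16.8% of all protein-coding genes. The lists are small and were not tested. Starts of neighbouring genes were not examined for these lists, so a peak outside a gene may lie at the start of another. They were not matched for gene length, with which the share over all genes differed (21.3% under 3 kb and 52.5% at 10 to 100 kb, inside or within 2 kb). Among PRC1 and Scm, the complex that reads the methyl mark, 5 of 7 genes had a peak. The strongest of these was 993 at ph-p (497 ± 160 over the replicates, SD, n = 2). Next were 687 outside Pc at 13443 bp from its start, 162 in Psc and 104 outside ph-d at -754 bp from its start. Su(z)2 also had a peak, and Sce and Scm had none. Among the DNA-binding and recruiting proteins 8 of 11 had a peak, led by phol (483), Trl, which encodes GAGA factor (409), grh (215) and Dsp1 (191). The phol and Dsp1 peaks lay outside the gene, at -1510 and -646 bp from its start, and those of Trl and grh lay in introns. The others were cg, psq, lolal and Sfmbt, and pho, Spps and z had none. In the PR-DUB deubiquitinase complex caly (114.7, outside the gene at -607 bp from its start) and sba (111, in an intron) had a peak. Asx had none. Of 5 further histone modifiers, 3 had a peak. The strongest was 1350 for ash1, at a site 8132 bp from its start and outside the gene. Next was 272 for nej, which encodes the acetyltransferase CBP, outside the gene at -718 bp from its start. The value for trx was 138, in an intron. None of these 5 had a summit at a start, and Utx and Kdm2 had no peak.

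The 100 bp on each side of the 14 summits were searched for 7 sequence motifs, on both strands. GAGAG was found at 4 of them, at E(z), at 2 of the pAbp summits near Pcl and at the jing peak 95.3 kb downstream, beside 33.1% of all main-list summits. GCCAT was found at 4, beside 28.4%, namely at Jarid2, at the first start of jing, at the jing peak 44.5 kb downstream and at a pAbp summit. CGATA was found at 2, beside 27.7%, in the Art3 and mRpS10 promoter and at the Hsf start. The Zelda motif CAGGTAG was found at 1, in jing, beside 1.26%. TATCGATA, GGTCACACT and TGACTCA were found at none, beside 2.98%, 2.12% and 1.79%. No test of these shares was made.

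Likeness to the peak near Caf1-55 was measured as the distance of the replicate signals on the log2 scale, over 2 samples, among genes with a start peak. The nearest genes were CG18549 at a distance of 0.0814, with 498 and 551, and CenG1A and mRpS23, which share a peak with 560 and 573, at 0.0983.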

How the data were processed

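The 2 samples were grouped by the labels as replicates of 1 group, so no groups were compared. The authors deposited peak lists on dm6, called per sample and on both samples together; which aligner and which peak caller made them is not given in the sources used here. Signal, as deposited, is the caller's own value on a scale that is not stated, and the deposited −log10 column of the ranked lists holds the IDR. Other input files appear in the file notes without a description. Of 4382 ranked peaks past the threshold, 187 were missing from the main list, none of them at the PRC2 genes.

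Computed here with Python 3.11.15, numpy 2.4.6, pandas 2.3.3, scipy 1.17.1 and pysam 0.24.0: summits were placed on the protein-coding genes of Ensembl release 115 (BDGP6.54), within 2 kb of the gene or 500 bp of a start, and a peak counts for every gene it lies near. Shares have 95% Wilson intervals. Replicate signals at main-list peaks were read from each replicate's own ranked list. Calypso was matched to caly by its RefSeq synonym. The placement was tested on simulated data and recovered 500 of 500 genes. These were isolated genes with a single start and a single peak each, so close divergent starts, nested genes and genes with several starts were not covered. Members, related lists, motifs and the rule for named genes (all members and their peaks, the 4 strongest of each related list, and neighbours with a start within 500 bp) were chosen with earlier results of these data known. The comparisons by gene length, of shared starts, and of the replicates at jing were added after the values were seen. Alternatives changed the list, threshold, window and assignment.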

Additional observations from a re-analysis of the deposited data

How the results depend on the processing

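Of 133 alternatives, 95 left a count within 1.5 times its value, or a share within the spread of the replicates, and 38 did not. Some of the 95 could not move. No ranked peak added past the threshold lay at a PRC2 gene, and esc and escl, with no main-list peak, could not lose any under a stricter list or a smaller window. With no flank around the gene, 3 PRC2 genes and 7 peaks were counted and 11.9% of all genes had a peak; Caf1-55, Pcl and Jarid2 then had 0. With 1000 bp of flank Caf1-55 had 0, Pcl 2 and all genes 24%, and with 5000 bp all genes had 40.2%. Counting a peak only for its nearest gene gave 3 PRC2 genes and 16.2% of all genes. In the stronger 50% of the main list, 1 PRC2 gene had a start peak and 5 peaks were counted, with 0 at Su(z)12, 2 at Pcl, 0 at Jarid2, 1 at jing and 5 genes of the DNA-binding and recruiting list; all genes had 19.1% and, at starts, 10.3%. The pooled list gave 25 peaks, 0 at Su(z)12 and 18 at jing, with 35.7% of all genes and 21.2% at starts. With either replicate left out, the lists of single replicates gave 2 PRC2 genes with a start peak, 9 to 18 peaks, 0 to 1 at Su(z)12, 1 to 3 at Pcl, 0 at Jarid2 and 3 to 15 at jing. They gave 1 to 2 genes of PR-DUB, 24.4 to 29.4% of all genes, and 13.5 to 17.2% at starts. No paired analysis was possible because the 2 samples form 1 group. The lists hold no read totals, so a peak that was not called may be below the limit of depth.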

Other observations

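The share of genes with a peak differed by gene length, in a comparison added after the values were seen. Of the 8638 protein-coding genes under 3 kb, 21.3% had a main-list summit inside or within 2 kb, as did 1 of the 3 PRC2 genes of that size (Caf1-55, and not esc or escl). Of the 3345 genes of 3 to 10 kb the share was 35%, and all 4 PRC2 genes of that size, E(z), Su(z)12, Pcl and Jarid2, had a summit. At starts the shares were 10.4% for the shorter class, with 0 of 3 PRC2 genes, and 21.8% for the longer, with 3 of 4. Of the 1898 genes of 10 to 100 kb, which include no PRC2 gene, 52.5% had a summit inside or within 2 kb and 36.1% at a start. Of the 87 genes of at least 100 kb, 49.4% had a summit inside or within 2 kb and 39.1% at a start, and jing had both.

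The density of peaks in jing depended on the list. Its 5 main-list summits inside the gene make 4.17 per 100 kb, against 3.05 over the 7 arms. In the pooled list there were 17, or 14.2 per 100 kb against 4.48. The list of replicate 1 gave 12.5 per 100 kb against 2.57, and that of replicate 2 gave 1.67 against 2.98. Among the 87 genes of at least 100 kb, 12 held more main-list summits than jing and the highest count was 16. Over these genes, counting also the 2 kb on either side, replicate 1 had 192 peaks and replicate 2 had 171, with 21 genes higher in replicate 1 and 20 higher in replicate 2. The list of replicate 1 held 12 more peaks at jing than that of replicate 2, the largest such excess among all 13968 protein-coding genes. These counts are not scaled by gene length, and jing is longer than 99.6% of protein-coding genes. The gene was singled out after its values were seen, and the cause was not tested.

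Shared starts were common in the whole list. Of the 2350 genes with a start peak, 44.9% shared the strongest with the start of another protein-coding gene, as did 3 of the 4 PRC2 genes with one (E(z), Su(z)12 and Jarid2). Over all main-list peaks the ratio of replicate 1 to replicate 2 had a median of 1.03 at starts and 1.15 elsewhere.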
